A study of Mus musculus with 75 samples.

Results

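The TEAD factors and the Hippo pathway genes that act directly on them were followed through replicative senescence and through 4 gene manipulations of mouse skin fibroblasts. The 10 genes were chosen by name: the TEAD factors Tead1, Tead2, Tead3 and Tead4, the coactivators Yap1 and Wwtr1 (the gene of TAZ), the cofactors Vgll3 and Vgll4, and the kinases Lats1 and Lats2. They are 10 of the 24984 genes in the count tables, and all 10 passed the filter on low counts in each of the 5 RNA-seq experiments. The study asked which transcription factors change with replicative senescence, the loss of division that follows repeated passaging. All samples were C57BL/6 skin fibroblasts. The untreated passage series came, per the methods, from 2-month-old female mice and was sampled at passages P1, P3, P5 and P7, with 4 RNA-seq libraries at each passage and 4, 3, 3 and 3 ATAC-seq samples, an assay of open chromatin. For E2f4 overexpression, 2 libraries of cells with a doxycycline-induced E2f4 vector that also carries EGFP were set against 2 libraries of cells overexpressing EGFP alone. For the knockdowns, short hairpins were delivered by lentivirus: E2f4 hairpin sh1 against a control group labelled nt (3 libraries each), Tead1 hairpins sh3 and sh4 against nt (3 each), and Atf3 hairpins sh5 and sh6 against nt (3 each). The study describes the cells as pre-senescent for E2f4 overexpression and for the Atf3 hairpins, and as proliferating for the E2f4 hairpin. The methods name fibroblasts of newborn and of 2-month-old mice for the manipulations, and which of them gave each library is not stated. The Tead1 hairpins sh3 and sh4 are directed at almost the same stretch of the transcript and are not independent targets. No source states whether replicates came from separate animals, so p-values measure only the spread between these libraries, which may be technical. For its methylation sites the study writes of 3 independent series followed through passage. Whether the RNA-seq and ATAC-seq replicates follow such series is not stated, and the main fits took no account of replicate number.

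Hippo signalling is a kinase cascade. The MST kinases (Stk3 and Stk4) activate LATS1 and LATS2, which phosphorylate YAP and TAZ and hold them in the cytoplasm. Unphosphorylated YAP and TAZ enter the nucleus and bind TEAD factors, which carry the DNA-binding domain that the coactivators lack. Members of the VGLL family bind the same face of TEAD proteins: VGLL4 is known as a competitor of YAP, and VGLL3 as a TEAD cofactor expressed in fibroblasts. In mesenchymal cells this pathway is known for its response to stiffness, cell shape and density, with Ccn1, Ccn2 and Ankrd1 among its best-known targets. LATS2 is itself a known target gene of YAP and TEAD.

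The genes lie on 8 chromosomes of the mouse genome, and coordinates are those of RefSeq on GRCm38.p6. Tead1 spans chr7:112679356-112906784 on the plus strand with 9905 exonic bases, and Tead2 lies on the same chromosome at chr7:45215792-45233468, plus strand, with 2359. Tead3 is at chr17:28331671-28350805 and Tead4 at chr6:128227143-128300813, both on the minus strand. Yap1 is at chr9:7931999-8004638 and Wwtr1 at chr3:57455644-57575910, again both on the minus strand. Vgll3 is at chr16:65815189-65866368 on the plus strand and Vgll4 at chr6:114860621-114970007 on the minus strand. Lats1 is at chr10:7681200-7716461 on the plus strand and Lats2 at chr14:57689662-57746212 on the minus strand. Exonic GC content ranged from 40.9% in Vgll3 and 43.0% in Lats1 to 60.0% in Tead2 and 60.6% in Tead3, which bears on the libraries described below. Reads were counted without regard to strand. Lats1 shares 129 of its 7215 exonic bases with Pcmt1 on the opposite strand and Lats2 shares 234 of 5554 with Gm52140, so reads from those stretches cannot be assigned to either gene.

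The 4 promoters below are shown because their genes rose with both Tead1 hairpins and their sequence holds the letters of the TEAD-binding element. The letters GGAATG and their complement CATTCC, 6 bases long, were searched on both strands in 300 bases of each promoter in the RefSeq table (250 before and 50 after the start). Of the members, 8 were in that table, namely all but Tead1 and Tead4, and 6 held the letters: Lats2, Tead3, Vgll3, Vgll4, Wwtr1 and Yap1. No match was found in these windows of Lats1 and Tead2. The same letters occurred in 4817 of 32851 promoters (14.7%) and in 4481 of 27025 genes (16.6%). A match is a description of the letters, not evidence of binding. Each line gives 200 bases, 5′ to 3′ on the strand of the gene, from 190 bases before the start to its first 10 bases, with the matched letters in capitals. The windows are chr14:57746114-57746313 (minus strand) for Lats2, chr17:28350796-28350995 (minus) for Tead3, chr16:65814999-65815198 (plus) for Vgll3 and chr6:114969194-114969393 (minus) for Vgll4. For the starts shown, the match lay at base 5 of the transcript in Lats2, and 182, 63 and 82 bases before the start in Tead3, Vgll3 and Vgll4. A further Tead3 start, at base 28350600, held 3 matches, 123 and 114 bases before it and at base 3. Another, at base 28350346, held none.
Lats2: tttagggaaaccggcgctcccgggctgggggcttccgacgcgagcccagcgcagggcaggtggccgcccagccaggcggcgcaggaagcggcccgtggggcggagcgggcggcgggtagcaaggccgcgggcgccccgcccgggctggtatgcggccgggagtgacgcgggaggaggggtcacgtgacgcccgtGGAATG
Tead3: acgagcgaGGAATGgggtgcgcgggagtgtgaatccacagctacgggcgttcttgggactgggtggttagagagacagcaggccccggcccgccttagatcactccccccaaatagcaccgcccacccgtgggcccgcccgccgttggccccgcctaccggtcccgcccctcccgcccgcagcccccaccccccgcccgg
Vgll3: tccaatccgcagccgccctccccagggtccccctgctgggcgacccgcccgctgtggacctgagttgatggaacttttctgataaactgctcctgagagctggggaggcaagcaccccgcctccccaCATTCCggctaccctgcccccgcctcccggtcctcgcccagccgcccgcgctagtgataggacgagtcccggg
Vgll4: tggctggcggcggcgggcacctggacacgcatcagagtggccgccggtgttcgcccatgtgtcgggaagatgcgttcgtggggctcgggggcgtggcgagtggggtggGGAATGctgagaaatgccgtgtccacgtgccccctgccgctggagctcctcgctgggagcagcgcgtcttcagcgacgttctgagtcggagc

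The 44 RNA-seq libraries held 9147324 to 27552949 reads counted on genes. The unit of level is CPM, in which a gene's reads are scaled to a common library total, here with the TMM adjustment for library composition. All 10 fibroblast markers (Col1a1, Pdgfra and others) had a mean of at least 1 CPM in each of the 14 RNA-seq groups. Their sum ran from 26481 CPM in the lowest P1 library to 59874 CPM in the highest P7 library. At P1 all muscle, macrophage and endothelial markers reached the same floor, so the floor alone does not set the cell type. Libraries differed in how GC-rich genes were represented. The tilt, the mean log2 level of the 25% of genes richest in GC minus that of the 25% poorest, both relative to the mean of the experiment, ran from -0.10 to -0.02 in P1 libraries, from -0.46 to -0.06 in P3, from -0.22 to 0.49 in P5 and from 0.09 to 0.50 in P7. It was wider in the E2f4 overexpression experiment (-0.72 to -0.36 in the controls, 0.40 to 0.67 with E2f4) and with Atf3 sh5 (-1.04 to -0.17, the lowest being replicate 3, against 0.22 to 0.45 in nt). In the Tead1 experiment all 9 libraries lay between -0.05 and 0.03. A fit that adds a smooth term for GC content and transcript length was chosen after the data were seen. It is therefore given beside each result of the 10 members whose call it changes. For lists of other genes it is given only where stated. In bulk RNA, fewer cells that express a gene and less RNA of it per cell cannot be told apart.

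Per kilobase of exon, the most abundant members at each of the 4 passages were Lats2, Yap1, Wwtr1, Vgll3 and Tead1, and the least abundant was Tead4. At P1 the mean levels were 46.0 CPM per kb for Lats2, 42.8 for Yap1, 41.6 for Vgll3, 35.4 for Wwtr1 and 35.1 for Tead1. They were 16.4 for Lats1, 15.3 for Tead3, 12 for Tead2, 10.3 for Vgll4 and 2.2 for Tead4. Neighbours in this order overlapped between libraries except between Vgll3 and Wwtr1, Tead1 and Lats1, Tead3 and Tead2, and Vgll4 and Tead4. At P7 Lats2 (70.6 CPM per kb), Yap1 (59.1) and Wwtr1 (58.4) overlapped one another and lay above Vgll3 (43.1) and Tead1 (38.1). In the nt cells of the Tead1 experiment Yap1 led with 92.5 CPM per kb, followed by Tead1 (54.7), Wwtr1 (45.2) and Lats2 (34.9), and no neighbours in the order overlapped.

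Tead1 had the highest mean level per kb of the 4 TEAD genes in all 14 groups, though with the Tead1 hairpin sh3 its libraries overlapped those of Tead3, and with the longest transcript as the length Tead3 led there (35.4% of the summed level against 33.2% for Tead1). Its share of the summed CPM per kb of the 4 TEAD genes was 54.3% ± 2.3 (SD, n = 4) at P1, and 58.9% ± 3.15, 52.2% ± 5.17 and 54.2% ± 4.85 at P3, P5 and P7. The share of Tead4 fell from 3.39% at P1 to 0.893% at P7. With the Tead1 hairpins the share of Tead1 went from 50.8% ± 1.67 (SD, n = 3) in nt to 34.1% ± 0.707 with sh3 and 36.8% ± 0.247 with sh4, while that of Tead3 went from 21.2% to 33.6% and 32.6%. It was 67.8% ± 6.18 (SD, n = 2) in the E2f4 vector controls against 51.2% ± 1.6 with E2f4. In the Atf3 experiment it was 51.1% ± 2.01 (SD, n = 3) in nt, 69.0% ± 6.60 with sh5 and 72.8% ± 1.31 with sh6. These shares are descriptions and were not tested.

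**Figure D1:**
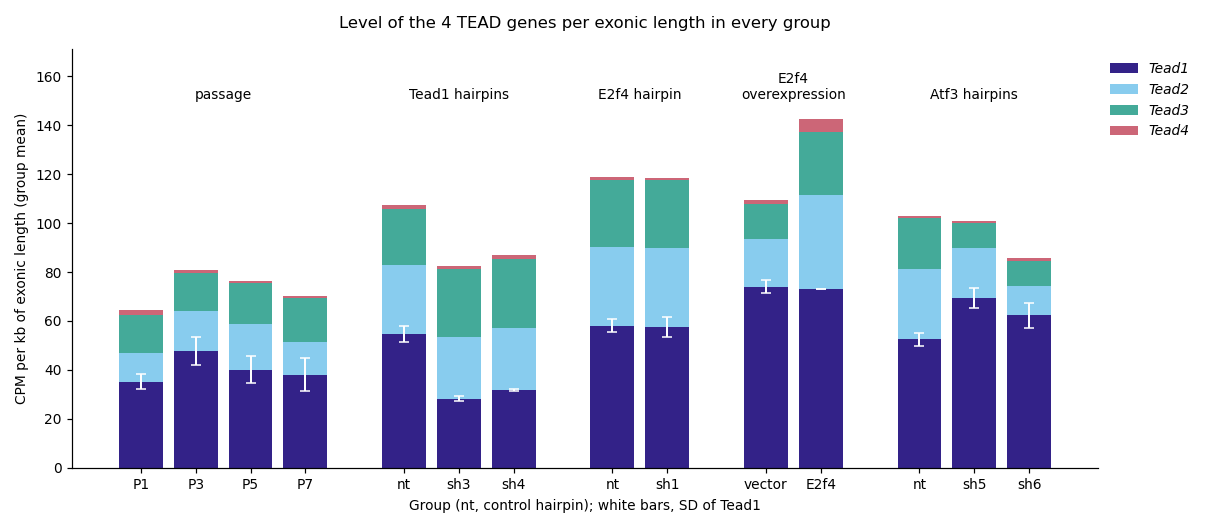
Stacked bars of the mean level of the 4 TEAD genes in CPM per kilobase of exon in the 14 RNA-seq groups, with a white bar for the SD of Tead1 over libraries. Tead1 makes up 54.3% of the summed level at P1 and 34.1% with the Tead1 hairpin sh3, the lowest of the groups.

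Over passage, the coactivators Yap1 and Wwtr1 and the kinase Lats2 rose, Tead4 fell, and Tead1 rose early and then came back in the deposited counts. Against P1, 5 of the 10 members were higher and 1 lower at P3 (edgeR's quasi-likelihood test, adjusted p under 0.05), when 16% of the 13442 genes tested were higher and 17.5% lower. At P5, 3 were higher and 1 lower, with 25.1% and 26.1% of all genes. At P7, 3 were higher and 2 lower, with 30.5% and 31.9% of all genes. With a fold change over 2 as a further criterion, none of the members passed at P3 and only Tead4 passed at P5 and P7, beside 8.98%, 15% and 21.4% of all genes at P3, P5 and P7. The comparisons with P1 share the same 4 libraries. The P1 cultures also held more RNA of other cells: summed macrophage markers were 330 to 517 CPM at P1 and at most 63.5 later, summed endothelial markers 178 to 200 CPM and at most 59.0, summed muscle markers 189 to 303 CPM and at most 111, and summed keratinocyte markers 64.6 to 393 CPM and at most 13.5. All 10 macrophage, all 10 muscle and all 8 endothelial markers had at least 1 CPM at P1, 8 of 10 keratinocyte markers did, and Krt15 was at 0. At P7 only 2 of the 10 muscle markers had at least 1 CPM, and Myog and Myod1 were at 0. The part of these cells in the differences from P1 was not tested.

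Tead1, the most expressed TEAD factor, measured 307, 347, 355 and 381 CPM at P1 and 417, 447, 481 and 545 CPM at P3. It measured 430, 456, 339 and 362 CPM at P5 and 279, 406, 409 and 417 CPM at P7. All P3 libraries lay above all P1 libraries, while the later passages overlapped P1. The rise at P3 was 0.44 on the log2 scale (SE 0.125, adjusted p = 0.0103, edgeR). The differences from P1 were 0.19 at P5 (adjusted p = 0.212) and 0.12 at P7 (adjusted p = 0.418), and neither passed. With GC and length in the fit these became 0.33 (adjusted p = 0.000303) and 0.40 (adjusted p = 3.17e-05), so whether Tead1 stayed raised at P5 and P7 depended on that term. P7 was below P3 by -0.32 (SE 0.125, adjusted p = 0.0365) in the deposited counts and 0.04 above it with GC and length (adjusted p = 0.646). That fall was also lost without P7 replicate 1 (-0.20, adjusted p = 0.129), P3 replicate 4 (-0.24, adjusted p = 0.140) or P3 replicate 3 (-0.31, adjusted p = 0.0731).

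Tead2, a TEAD factor best known from early embryos, peaked at the middle passages. It measured 32.7, 23.9, 30.0 and 26.7 CPM at P1, 39.2, 39.8, 40.1 and 36.1 at P3, 42.3, 43.8, 48.4 and 42.4 at P5, and 33.4, 34.8, 29.1 and 29.5 at P7. Every P3 and P5 library lay above every P1 library. It was higher by 0.45 at P3 (SE 0.0985, adjusted p = 0.00147) and by 0.64 at P5 (SE 0.0983, adjusted p = 2.05e-05), and at P7 by 0.16, which did not pass (adjusted p = 0.165). P7 lay below P5 by -0.48 (adjusted p = 0.00214) and below P3 by -0.29 (adjusted p = 0.0180). The call against P3 was lost without P7 replicate 3 (-0.25, adjusted p = 0.0670) or replicate 4 (-0.26, adjusted p = 0.0521).

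Tead4, known for its part in the first lineage of the embryo, was the only member that changed more than 2-fold with passage, at a low level. It measured 4.73, 9.17, 6.08 and 7.05 CPM at P1, 4.60, 2.54, 4.06 and 5.92 at P3, 3.81, 2.77, 2.52 and 3.18 at P5, and 1.45, 2.85, 2.00 and 1.48 at P7. The P5 and P7 libraries lay below all P1 libraries. It fell by 1.14 at P5 (SE 0.256, adjusted p = 0.00104) and by 1.79 at P7 (SE 0.275, adjusted p = 1.28e-05), which is 0.288 times the P1 level. At P3 it was lower by -0.66 (SE 0.249, adjusted p = 0.0472). The P3 call was lost without any of P1 replicates 2, 3 and 4 or P3 replicates 1, 2 and 3 (-0.71 to -0.48), and with GC and length (-0.54, adjusted p = 0.0884). P7 was also below P3, by -1.13 (SE 0.282, adjusted p = 0.00255). Tead3, a TEAD factor known from the placenta, measured 42.3 to 48.3 CPM at P1 and 48.6 to 62.0 at P7. Its differences from P1 were 0.00, 0.13 and 0.23 at P3, P5 and P7, and none of them passed.

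Yap1, the gene of the YAP coactivator, measured 183, 165, 182 and 185 CPM at P1, and 221, 262, 260 and 244 CPM at P7. P3 (203 to 224 CPM) and P5 (203 to 220 CPM) lay above every P1 library too. It rose by 0.24 at P3 (SE 0.0731, adjusted p = 0.0145), 0.25 at P5 (SE 0.0731, adjusted p = 0.00779) and 0.47 at P7 (SE 0.0732, adjusted p = 1.76e-05). The P3 call was lost without P1 replicate 2, the lowest of its group (0.21, adjusted p = 0.0648). Wwtr1, the gene of TAZ, measured 166, 159, 168 and 185 CPM at P1, 218 to 251 at P3, 212 to 234 at P5, and 253, 261, 283 and 320 at P7. None of the later libraries overlapped P1. It rose by 0.45 (SE 0.0833, adjusted p = 0.000359), 0.42 (SE 0.0833, adjusted p = 0.000334) and 0.72 (SE 0.0835, adjusted p = 4.04e-07) at P3, P5 and P7, the last being 1.65 times the P1 level, and 0.95 with GC and length. Both coactivators passed in every comparison with P1.

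The VGLL cofactors showed smaller differences. Vgll3 measured 279 to 318 CPM at P1, 294 to 351 at P3, 251 to 312 at P5 and 279 to 339 at P7, with all passages overlapping. Its differences from P1 were 0.13, -0.08 and 0.05, none past the test. Vgll3 is the member poorest in GC, and with GC and length in the fit it was higher at P5 (0.19, adjusted p = 0.0136) and at P7 (0.42, adjusted p = 5.49e-06). Vgll4, the competitor of YAP, measured 35.2, 28.5, 35.8 and 34.7 CPM at P1 and 21.8, 27.7, 25.4 and 32.5 at P7, so the groups overlapped. It was lower at P7 by -0.32 (SE 0.125, adjusted p = 0.0315). This call was lost without P1 replicates 1, 3 or 4 or P7 replicates 1 or 3 (-0.30 to -0.23).

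Of the LATS kinases, which inhibit YAP and TAZ, Lats2 rose and Lats1 did not pass against P1. Lats2 measured 232, 241, 270 and 278 CPM at P1, 313, 302, 320 and 373 at P3, 279 to 311 at P5, and 310, 434, 417 and 407 at P7. All P7 libraries lay above all P1 libraries. It was higher by 0.36 at P3 (SE 0.101, adjusted p = 0.0107) and 0.62 at P7 (SE 0.102, adjusted p = 2.86e-05). At P5 the difference was 0.21 (adjusted p = 0.0854), and 0.23 with GC and length (adjusted p = 0.00954). Lats1 measured 107 to 128 CPM at P1, 126 to 145 at P3, 88.8 to 115 at P5 and 91.0 to 126 at P7. It differed from P1 by 0.20, -0.23 and -0.13, and none passed with all libraries, though P5 passed without P5 replicate 2 (-0.30, adjusted p = 0.0320). With GC and length the P7 difference was 0.19 (adjusted p = 0.00499), so the sign of Lats1 at P7 depended on that term.

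Between later passages, P5 against P3 called 1 member, lower, beside 13.4% of all genes higher and 15.3% lower. It was Lats1, at -0.43 (SE 0.107, adjusted p = 0.00584), which with GC and length was -0.11 (adjusted p = 0.158). In that fit Wwtr1 (0.23, adjusted p = 0.0159) and Vgll3 (0.18, adjusted p = 0.0311) passed as higher, where the deposited counts had Wwtr1 at -0.03 and Vgll3 below P3. Vgll3, at -0.21 (adjusted p = 0.0784), passed without P5 replicate 2 (-0.27, adjusted p = 0.0317). P7 against P5 called 3 members higher and 1 lower, when 7.67% of genes were higher and 9.10% lower. Lats2 (0.41, adjusted p = 0.00918), Wwtr1 (0.30, adjusted p = 0.0164) and Yap1 (0.22, adjusted p = 0.0478) were higher and Tead2 was lower. The call of Wwtr1 was lost without P5 replicate 3 (0.27, adjusted p = 0.0535) or P7 replicate 4 (0.23, adjusted p = 0.0633). That of Yap1 was lost without any P5 replicate or without P7 replicates 2, 3 or 4, with adjusted p from 0.0645 to 0.125. In the fit with GC and length Vgll3 (0.23, adjusted p = 0.00780) and Lats1 (0.20, adjusted p = 0.0113) passed as well.

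P7 against P3 called 3 members higher and 4 lower, beside 24.8% and 26.5% of all genes. Wwtr1 (0.27, adjusted p = 0.0106), Yap1 (0.22, adjusted p = 0.0164) and Lats2 (0.26, adjusted p = 0.0364) were higher. Tead1, Tead2, Tead4 and Lats1 were lower, Lats1 by -0.33 (adjusted p = 0.0145). Without P7 replicate 1 the count was 3 higher and 2 lower, with Lats1 at -0.25 (adjusted p = 0.0527). Lats1 was also lost without P7 replicate 2 (-0.28, adjusted p = 0.0518), Yap1 without P7 replicate 2 (0.19, adjusted p = 0.0511), and Lats2 without any of P3 replicates 1, 2 and 3 or P7 replicates 2, 3 and 4 (0.21 to 0.25). With GC and length Lats1 turned to 0.10 (adjusted p = 0.160), and Vgll3 passed at 0.42 (adjusted p = 1.23e-05) and Vgll4 at -0.25 (adjusted p = 0.0470). In that fit Wwtr1 was at 0.60 and Tead2 at -0.56.

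As a description over the 16 passage libraries, the log2 CPM of Yap1 correlated with that of Lats2 at r = 0.91, with that of Wwtr1 at 0.91, and Wwtr1 with Lats2 at 0.88. These libraries share their passage, depth and GC tilt. The 5 genes most like Tead1, among 9424 genes with an average log2 CPM of at least 3, were Atf6 (r = 0.93), Msn (0.92), Aff1 (0.92), Trim44 (0.91) and Cdc42bpa (0.91). Among the members Lats1 (r = 0.68, exonic GC content 43.0%) and Vgll3 (0.63, 40.9%) were nearest to Tead1 (46.5%). Further away were Lats2 (0.48, 51.9%), Wwtr1 (0.40, 44.2%), Yap1 (0.31, 50.3%), Tead2 (0.27, 60.0%), Vgll4 (-0.02, 56.3%) and Tead3 (-0.06, 60.6%). The part of the GC tilt in these correlations was not tested.

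Among the known targets of YAP, TAZ and TEAD, more passed as higher than as lower at P3, P5 and P7 against P1. Of 21 target genes, 8 were higher and 1 lower at P3, 7 and 2 at P5, and 11 and 2 at P7, with a median difference from P1 of 0.22, 0.15 and 0.50. Of all genes 16%, 25.1% and 30.5% were higher and 17.5%, 26.1% and 31.9% lower at P3, P5 and P7, and their median was 0.00, 0.00 and -0.01. Without P7 replicate 1, 14 were higher and 2 lower at P7 (median 0.59). Ccn2, a secreted matrix protein and the best-known target, went from a mean of 310 CPM at P1 to 1098 CPM at P7 (1.82, SE 0.206, adjusted p = 2.88e-07). F3 (tissue factor) rose by 1.5 and Ccdc80, a matrix protein, by 1.28. Ankrd1, a nuclear ankyrin protein, rose by 1.28 (adjusted p = 7.16e-07). The 2 targets that fell were Igfbp3, which binds insulin-like growth factors (40.6 to 8.10 CPM, -2.32), and the receptor kinase Axl (-0.28). Between later passages the counts were 1 higher and 2 lower for P5 against P3, beside 13.4% and 15.3% of all genes. They were 6 and 1 for P7 against P5, beside 7.67% and 9.10%, and 5 and 2 for P7 against P3, beside 24.8% and 26.5%. Summed proliferation markers, 1112 to 1158 CPM at P1, were 145 to 179 CPM at P7.

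Of 21 genes of the Hippo core and its upstream regulators, 3 were higher and 4 lower at P7 than at P1, with a median of 0.03, beside 30.5% and 31.9% of all genes. Amotl2, an angiomotin that binds YAP and is also a target, rose from a mean of 196 to 439 CPM (1.16), Frmd6 rose by 0.57 and the kinase Taok3 by 0.36. The cadherin Dchs1 fell from 41.6 to 3.23 CPM (-3.69, adjusted p = 2.77e-11). The LIM protein Ajuba was lower by -0.66 and Fat4, the cadherin partner of Dchs1, by -0.44 (adjusted p = 0.0394). With GC and length the counts of this list were 10 higher and 3 lower at P7 (median 0.19), and Fat4 no longer passed (-0.20, adjusted p = 0.141). The shares of all genes above belong to the deposited counts, and none is given for that fit. At P3 the list had 6 higher and 3 lower, beside 16% and 17.5% of all genes. At P5 it had 3 higher and 4 lower, beside 25.1% and 26.1%. Amotl2 and Ptpn14 are in both lists.

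Knockdown of Tead1 lowered its transcript with both hairpins and went with higher levels of Lats2, Vgll3, Vgll4, Tead3 and Lats1. Tead1 measured 572, 508 and 545 CPM in nt, 268, 284 and 285 with sh3, and 315, 313 and 320 with sh4. It fell by 0.96 with sh3 (SE 0.0423, adjusted p = 4.63e-17), to 0.515 times the nt level, and by 0.78 with sh4 (SE 0.0420, adjusted p = 8.58e-15), to 0.584 times. The knockdown was deeper with sh3 than with sh4: sh4 lay above sh3 by 0.18 (adjusted p = 0.00625), the 1 member higher in that comparison and none lower, beside 3.34% and 4.03% of all genes, and without Tead1 sh3 replicate 1 the difference was 0.15 (adjusted p = 0.0556). Including Tead1, 5 of the 10 members were higher and 4 lower with sh3, against 17.6% of the 13012 genes tested higher and 17.7% lower. With sh4, 5 were higher and 2 lower, against 14.4% and 14.7%. Both hairpins were compared with the same 3 nt libraries.

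**Figure D2:**
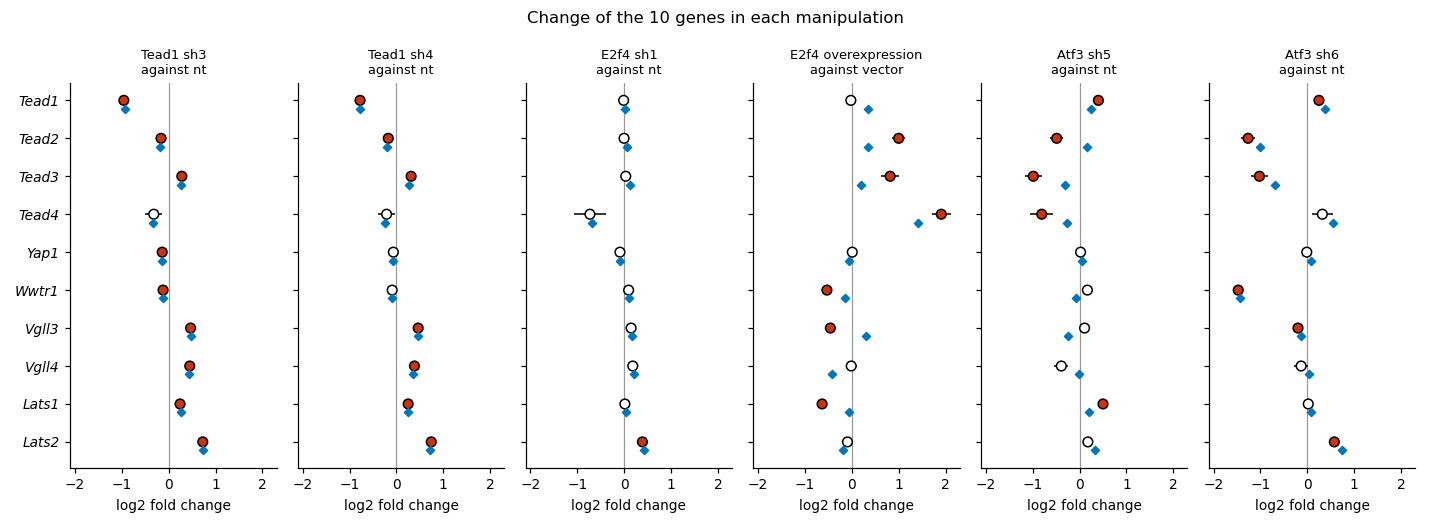
Log2 fold change of the 10 genes with SE in the 6 manipulations against their controls, filled where the adjusted p was under 0.05 and open where not, with diamonds for the fit with GC and length. In the Tead1 experiment the points and diamonds almost coincide, while for Vgll3 with E2f4 overexpression the point is at -0.46 and the diamond at 0.30.

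Lats2 rose the most. It measured 198, 194 and 188 CPM in nt, 302, 333 and 326 with sh3, and 320, 321 and 331 with sh4, so that the hairpin groups lay far above the control. The log2 changes were 0.73 (SE 0.0422, adjusted p = 1.32e-14) and 0.74 (SE 0.0421, adjusted p = 2.17e-14), or 1.65 and 1.67 times nt. Its start holds the letters printed above at base 5, which is not evidence of binding. Wwtr1 and Yap1 also held the letters and did not rise. Of the members without a match, Lats1 rose and Tead2 was lower. Lats1 measured 103, 112 and 107 CPM in nt, 123, 128 and 129 with sh3, and 125, 128 and 130 with sh4, and rose by 0.24 (adjusted p = 8.61e-05) and 0.25 (adjusted p = 7.77e-05). Both kinases act against YAP and TAZ.

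Vgll3 measured 172, 175 and 174 CPM in nt, 229, 246 and 246 with sh3, and 238, 236 and 245 with sh4. It rose by 0.47 (SE 0.0412, adjusted p = 1.35e-10) and 0.46 (SE 0.0411, adjusted p = 2.64e-10). Vgll4 measured 30.1, 28.5 and 28.7 CPM in nt, 41.4, 41.3 and 36.5 with sh3, and 37.5, 39.0 and 37.4 with sh4, and rose by 0.45 (SE 0.0673, adjusted p = 3.09e-06) and 0.38 (SE 0.0674, adjusted p = 4.44e-05). Neither gene overlapped its controls. The factor Tead3 measured 67.6, 66.4 and 71.6 CPM in nt, 80.4, 84.8 and 84.6 with sh3, and 85.0, 82.5 and 88 with sh4. It rose by 0.28 (SE 0.0507, adjusted p = 4.91e-05) and 0.31 (SE 0.0505, adjusted p = 1.38e-05). These 5 rises passed in the fit with GC and length too.

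Other members were lower. Tead2 measured 66.9, 70.0 and 63.8 CPM in nt, 60.4, 56.5 and 62.3 with sh3, and 60.8, 58.6 and 58.4 with sh4, at -0.16 (adjusted p = 0.0198) and -0.17 (adjusted p = 0.0162). Its sh3 call was lost without nt replicate 2 (-0.13, adjusted p = 0.100) or sh3 replicate 2 (-0.12, adjusted p = 0.126), and its sh4 call without nt replicate 2 (-0.14, adjusted p = 0.0935), sh4 replicate 2 (-0.16, adjusted p = 0.0571) or sh4 replicate 3 (-0.16, adjusted p = 0.0557). Yap1 went from 388, 381 and 388 CPM in nt to 348, 354 and 349 with sh3 (-0.14, adjusted p = 0.00346) and 361, 373 and 372 with sh4 (-0.07, adjusted p = 0.199). Wwtr1 was lower with sh3 (-0.12, adjusted p = 0.0235), a call lost without nt replicates 1 or 2 or sh3 replicates 1 or 2 (-0.11 to -0.10), and with sh4 was at -0.09 (adjusted p = 0.104, and 0.0498 with GC and length). The difference between sh4 and sh3 did not pass for Yap1 (0.07, adjusted p = 0.257) or Wwtr1 (0.03, adjusted p = 0.751). Tead4, at 3.36 to 5.66 CPM in the 9 libraries, did not pass with either hairpin (-0.32 and -0.21).

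The targets of YAP, TAZ and TEAD moved both ways with Tead1 knockdown. With sh3, 10 of 21 were higher and 5 lower (median 0.14), and with sh4 9 and 5 (median 0.16), where the median of all genes was 0.00. The shares of all genes were 17.6% higher and 17.7% lower with sh3, and 14.4% and 14.7% with sh4. Of the best-known targets, Ccn2 and Ankrd1 fell and Ccn1 did not pass: Ccn2 by 0.29 with sh3 (adjusted p = 4.23e-08) and 0.12 with sh4 (adjusted p = 0.00953), and Ankrd1 by 0.36 (adjusted p = 8.18e-06) and 0.26 (adjusted p = 0.000709). Fjx1, the mouse four-jointed gene, fell by 0.53 and 0.33, and the growth factor Tgfb2 by 0.40 and 0.24. Igfbp3 rose from 6.78 CPM to 15.2 with sh3 (1.16) and 13.6 with sh4 (1.00). F3 rose by 0.58 and Nt5e, an ectonucleotidase at 1.97 CPM in nt, by 0.79 with sh3, and with sh4 the transcription factor Foxf2 rose by 0.64 and the adaptor Asap1 by 0.41. Ccn1 differed by 0.04 and 0.08, neither past the test. In sh4 against sh3, 3 targets were higher and 1 lower, beside 3.34% and 4.03% of all genes.

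**Figure D3:**
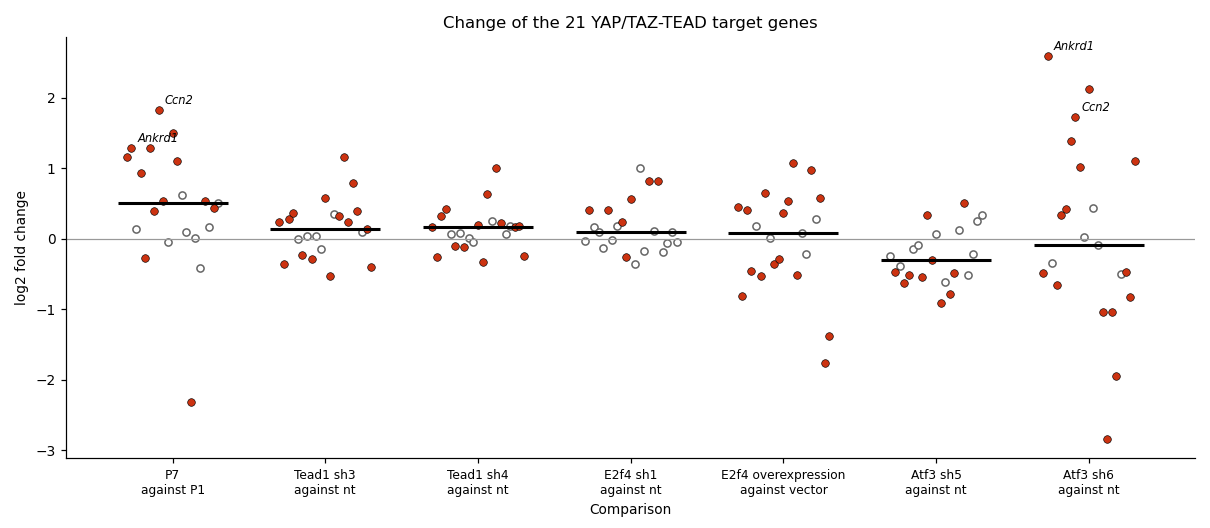
Log2 fold changes of the 21 target genes of YAP, TAZ and TEAD in 7 comparisons, 1 point per gene, red where the adjusted p was under 0.05, with a black line at the median. The median is 0.50 for P7 against P1, with 11 targets higher and 2 lower, beside 30.5% and 31.9% of all genes. It is 0.14 for Tead1 sh3, with 10 higher and 5 lower, beside 17.6% and 17.7%.

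Among the 21 Hippo core and upstream genes, 3 were higher and 8 lower with sh3 (median -0.08), beside 17.6% and 17.7% of all genes. With sh4, 5 were higher and 3 lower (median 0.01), beside 14.4% and 14.7%. Stk4, the MST1 kinase upstream of LATS, fell most, from 45.8 CPM to 24.9 with sh3 (-0.88, adjusted p = 2.43e-11) and 24.2 with sh4 (-0.92, adjusted p = 1.69e-11). Amot fell by 0.41 and 0.33, Wwc1 (the scaffold KIBRA) by 0.39 with sh3, and Limd1 by 0.21 with sh4. Mob1b, the LATS cofactor, rose by 0.27 with both, the kinase Taok1 by 0.18 and 0.22, Amotl2 by 0.23 with sh3, and Taok2 by 0.17 with sh4. Summed muscle markers were 99.2 to 100 CPM in nt, 65.8 to 76.3 with sh3 and 74.4 to 84.1 with sh4. In each of these groups only 2 of the 10 markers had a mean of at least 1 CPM, and Myog and Myod1 were at 0. The part of these markers was not tested.

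With E2f4 overexpression the smaller TEAD genes Tead2, Tead3 and Tead4 were higher and Lats1, Wwtr1 and Vgll3 lower, and only Tead4 and Tead2 kept both direction and call with GC and length in the fit. E2f4, a cell cycle factor, went from 35.5 and 47.5 CPM to 1118 and 1180 CPM (4.79, adjusted p = 7.07e-08). Of the members 3 were higher and 3 lower, against 28.9% and 28.2% of the 13199 genes tested. Tead4 went from 3.62 and 5.19 CPM to 14.5 and 18.3 CPM, without overlap. It rose by 1.91 (SE 0.206, adjusted p = 4.22e-05), 3.75 times, and by 1.40 with GC and length (adjusted p = 4.43e-05). Tead2 went from 40.3 and 51.3 CPM to 88.2 and 94.7 CPM (1.00, adjusted p = 0.000138), and 0.35 with GC and length (adjusted p = 0.00327). Tead3 went from 32.8 and 54.6 CPM to 73.3 and 80.2 CPM (0.82, adjusted p = 0.00424), and 0.20 with GC and length (adjusted p = 0.182).

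The falls were the less certain side. Lats1 went from 189 and 174 CPM to 121 and 113 CPM (-0.63, adjusted p = 0.000566), and -0.07 with GC and length (adjusted p = 0.438). Wwtr1 went from 272 and 244 CPM to 185 and 173 CPM (-0.53, adjusted p = 0.00166), and -0.14 with GC and length (adjusted p = 0.112). Vgll3 went from 327 and 309 CPM to 240 and 223 CPM (-0.46, adjusted p = 0.00308). It turned to 0.30 with GC and length (adjusted p = 0.00699) and lost its call without E2f4 replicate 2 (-0.40, adjusted p = 0.0657). Tead1 measured 751 and 715 CPM in the controls and 722 and 722 CPM with E2f4 (-0.02, adjusted p = 0.856), but 0.34 with GC and length (adjusted p = 0.00273). Yap1 (288 and 289 against 289 and 292 CPM), Lats2 and Vgll4 did not pass in the deposited counts. Both Vgll4 (-0.42, adjusted p = 0.00388) and Lats2 (-0.20, adjusted p = 0.0437) passed as lower with GC and length, where the deposited counts had them at -0.01 and -0.09. Of the targets, 8 were higher and 8 lower (4 and 7 with GC and length), with Ccn1 at 0.64 and Ankrd1 at -0.81. Among the core genes 8 were higher and 4 lower. In the deposited counts 28.9% of all genes were higher and 28.2% lower. No share of all genes is given for the fit with GC and length. The GC tilt did not overlap between the 2 groups, so its part in these differences cannot be told apart from that of E2f4. The GC and length term takes out any difference that follows GC content, whatever its source.

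With E2f4 knockdown, Lats2 was the only member that passed the test. E2f4 fell from 60.0 ± 0.703 CPM (SD, n = 3) to 21.3 ± 0.776 CPM (-1.50, adjusted p = 2.14e-07). Of the members 1 was higher and none lower, when 10% of the 12310 genes tested were higher and 7.79% lower. Lats2 measured 192, 191 and 198 CPM in nt and 264, 262 and 235 CPM with sh1, without overlap, and rose by 0.39 (SE 0.0641, adjusted p = 0.000783). Tead1 measured 581, 545 and 598 CPM in nt and 610, 575 and 528 with sh1 (-0.01, adjusted p = 0.931). The sh1 library of replicate 3 weighed on the other members: without it Vgll3 (0.24, adjusted p = 0.00152), Wwtr1 (0.17, adjusted p = 0.0278) and Tead4 (-1.08, adjusted p = 0.0266) passed as well, making 4. With all libraries they were at 0.15, 0.10 and -0.73. Of the targets 6 were higher and 1 lower (median 0.10), with Ankrd1 at 0.40 (adjusted p = 0.0199), and of the core genes none were higher and 6 lower. At 9147324 to 10467751 reads these were the shallowest libraries.

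The Atf3 hairpins gave different pictures. Atf3, a factor of the AP-1 family, was low throughout: 3.31, 2.85 and 2.77 CPM in nt, 1.46, 2.10 and 0.451 with sh5, and 1.51, 1.56 and 2.09 with sh6. It fell by 1.14 with sh5 (SE 0.393, adjusted p = 0.0447), while with sh6 it was at -0.79 and did not pass (adjusted p = 0.114). The sh6 value rests on 52 to 78 reads per nt library and 26 to 36 per sh6 library. The study itself checked the Atf3 knockdown by RT-qPCR and, for the protein, by immunoblot. Of the members 2 were higher and 3 lower with sh5, against 17.7% and 18.1% of the 13345 genes tested, and 2 higher and 4 lower with sh6, against 23.8% and 26.0%. Both were compared with the same nt libraries. Set against each other, a comparison added after the values were seen, 2 members were higher and 4 lower with sh6 than with sh5, against 25.9% and 26.6%.

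Wwtr1 separated the hairpins most. It measured 273, 255 and 263 CPM in nt, 289, 297 and 302 with sh5, and 97.9, 95.6 and 91.6 with sh6. It fell by 1.47 with sh6 (SE 0.0649, adjusted p = 1.13e-07), to 0.360 times nt, and with sh5 was at 0.17 (adjusted p = 0.0616). Without sh5 replicate 3 the sh5 value was 0.18 (adjusted p = 0.0173). Between the hairpins the difference was -1.64 (adjusted p = 8.09e-08). Yap1, at 283 to 306 CPM in all 9 libraries, differed by 0.02 and -0.01 and did not pass.

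Tead3 and Tead2 were lower with both hairpins. Tead3 measured 59.6, 65.6 and 62.8 CPM in nt, 35.7, 38.4 and 20.6 with sh5, and 32.1, 28.5 and 32.1 with sh6, at -0.99 (SE 0.186, adjusted p = 0.00370) and -1.02 (SE 0.187, adjusted p = 0.00114). With GC and length these were -0.31 (adjusted p = 0.0123) and -0.70 (adjusted p = 1.35e-05). Without sh5 replicate 3 the hairpins differed, at -0.28 (adjusted p = 0.00861), and with it at -0.03. Tead2 measured 65.9, 69.0 and 67.4 CPM in nt, 52.2, 56.0 and 36 with sh5, and 26.3, 29.3 and 28.7 with sh6. It fell by 1.26 with sh6 (adjusted p = 4.62e-05). With sh5 it was at -0.49 (adjusted p = 0.0223), lost without nt replicate 2 (-0.47, adjusted p = 0.0738) or 3 (-0.49, adjusted p = 0.0643), and turned to 0.16 with GC and length (adjusted p = 0.257).

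Tead1 measured 549, 514 and 497 CPM in nt, 682, 649 and 729 with sh5, and 567, 620 and 667 with sh6, each group above the controls. It rose by 0.40 with sh5 (SE 0.0797, adjusted p = 0.00457) and by 0.25 with sh6 (SE 0.0796, adjusted p = 0.0245). The sh6 call was lost without nt replicates 2 or 3 or sh6 replicates 2 or 3 (0.20 to 0.25), and was 0.38 with GC and length (adjusted p = 2.27e-05). Lats1 rose with sh5, from 115, 110 and 114 CPM to 152, 144 and 184 (0.50, adjusted p = 0.00554), which was 0.21 with GC and length (adjusted p = 0.0191), and with sh6 was at 0.02. Lats2 rose with sh6, from 149, 157 and 143 CPM to 225, 222 and 222 (0.58, adjusted p = 0.000350), and with sh5 was at 0.18 (adjusted p = 0.137), or 0.25 without sh5 replicate 2 (adjusted p = 0.0455) and 0.33 with GC and length (adjusted p = 0.0307).

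Tead4 was at 2.04 to 3.46 CPM in nt, 1.48 to 1.58 with sh5 and 3.00 to 3.78 with sh6. The sh5 difference of -0.81 (adjusted p = 0.0260) was lost without nt replicates 2 or 3 or sh5 replicates 1 or 2 (-0.83 to -0.60), and with GC and length (-0.27, adjusted p = 0.492). Vgll3 was lower with sh6 at -0.20 (adjusted p = 0.0348), lost without any 1 of the 6 libraries (-0.22 to -0.17) and with GC and length (-0.14, adjusted p = 0.0808). With sh5 it was at 0.11 and did not pass, and with GC and length at -0.25 (adjusted p = 0.0143). Vgll4, at -0.39 with sh5, passed without sh5 replicate 1 (-0.53, adjusted p = 0.0278). Without sh5 replicate 3, whose GC tilt of -1.04 was the lowest of all, sh5 had 3 members higher and 3 lower, and sh6 against sh5 had 2 higher and 5 lower. In the fit with GC and length, sh6 against sh5 had Tead3 at -0.38 (adjusted p = 0.00162) and Tead1 at 0.13 (adjusted p = 0.0260), which did not pass in the deposited counts, and lost Lats1 (-0.12, adjusted p = 0.0885) and Vgll3 (0.11, adjusted p = 0.165).

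The targets also parted between the Atf3 hairpins. With sh5, 2 of 21 were higher and 8 lower (median -0.30), and with sh6, 8 and 8 (median -0.08), where the median of all genes was -0.03 and -0.02. The shares of all genes were 17.7% higher and 18.1% lower with sh5, and 23.8% and 26.0% with sh6. These list counts are from the deposited counts, and none is given with GC and length in the fit. Ccn2 fell by 0.54 with sh5 (adjusted p = 0.00130) and rose by 1.73 with sh6 (adjusted p = 1.73e-07). With sh6 Ankrd1 rose by 2.59 and Ccn1 by 1.38. In sh6 against sh5, 10 targets were higher and 5 lower, beside 25.9% and 26.6% of all genes. Of the core genes 5 were higher and 3 lower with sh5 (median -0.14), and 6 and 7 with sh6 (median -0.15). Summed muscle markers were 39.0 to 40.7 CPM in nt, 17.6 to 20 with sh5 and 201 to 220 with sh6, where 4 of 10 had at least 1 CPM and Myh8 and Myog were at 0. Their part was not tested.

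In the ATAC-seq data the promoters of the members were open at every passage. Annotated starts close to one another (3 for Tead3, 2 for Wwtr1) were taken as 1 promoter at the most upstream start. This gave 12 promoters for the 10 genes. Of these, 11 held a peak within 1000 bases in all 13 samples, the exception being a downstream start of Lats2, which held none. The deposited peak lists hold no read counts, so depth is unknown, and samples held 142384 to 231558 peaks. Of 24080 genes with a promoter peak in any sample, 17721 held one in every sample, as did all 10 members. Across these 17721 genes, the fold enrichment of the strongest peak was compared with limma. None of the members passed for P3 against P1 (2.42% of genes higher, 2.73% lower), P7 against P1 (9.22% and 10.3%) or P7 against P3 (5.01% and 4.23%). For P5 against P1 (4.67% and 3.81%) 1 passed: Vgll4, higher by 0.33 on the log2 scale (SE 0.0935, adjusted p = 0.0377), a call lost without P1 replicates 1, 2 or 3 or P5 replicates 1 or 2 (0.26 to 0.35). Lats1 passed for P3 against P1 without P3 replicate 3 (0.46, adjusted p = 0.0481), and Tead2 for P7 against P3 without the same sample (-0.62, adjusted p = 0.0365).

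**Figure D4:**
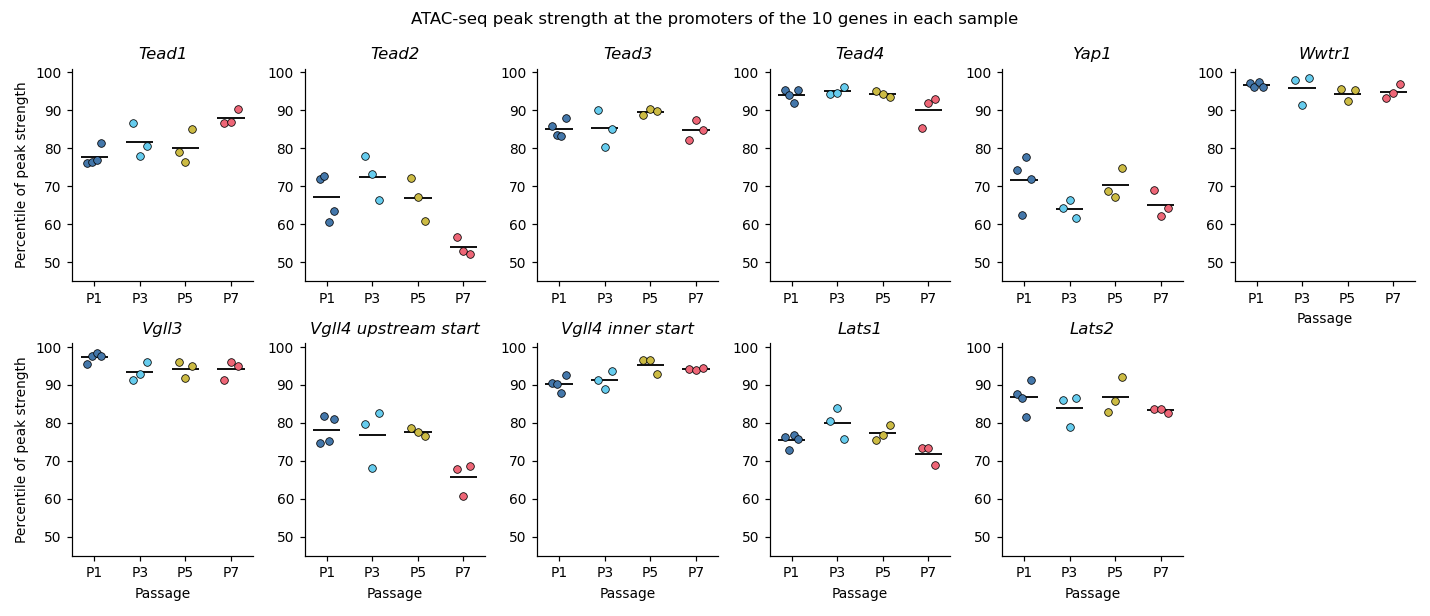
Percentile of the promoter peak among all peaks of its own sample, ranked by the −log10 p of MACS2, for 11 promoters of the 10 genes, 1 point per ATAC-seq sample at P1, P3, P5 and P7. Tead1 lies at 76.2 to 81.4 at P1 and 86.6 to 90.3 at P7, and the upstream start of Vgll4 at 74.6 to 81.9 and 60.6 to 68.8.

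As a measure within each sample, the percentile of the promoter peak among all peaks was compared by an exact two-sided permutation test. Over 3 measures and 4 comparisons 132 such tests were made without adjustment. Of the 99 tests against the 4 samples of P1, 21 were below 0.05, and the smallest p that 4 against 3 samples allow is 0.0286. No share over all promoters stands beside this count, so it cannot be read as particular to the members. The other 33, of 3 against 3 samples, cannot go below 0.1. The Tead1 promoter stood at the 76.2, 76.3, 76.8 and 81.4 percentile at P1 and at 86.6, 86.8 and 90.3 at P7, without overlap (exact permutation p = 0.0286). Its fold enrichment was 5.83, 6.25, 6.54 and 7.51 at P1 and 8.02, 9.04 and 9.82 at P7 (exact permutation p = 0.0286), and the limma difference was 0.35 (adjusted p = 0.0658). The Tead2 promoter stood lower at P7 (52.2, 53.0 and 56.6) than at P1 (60.5, 63.4, 71.9 and 72.8), again without overlap (exact permutation p = 0.0571).

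The promoters of Vgll4 had differences of opposite sign at P7, and the difference between them was not tested. The upstream start at base 114969203 of chromosome 6, whose window is printed above, stood at 74.6, 81.9, 75.2 and 80.9 at P1 and at 67.8, 60.6 and 68.8 at P7 (exact permutation p = 0.0286). The inner start at base 114921821 stood at 90.4, 90.2, 88 and 92.5 at P1 and at 94.3, 93.9 and 94.4 at P7 (exact permutation p = 0.0571), and its mean fold enrichment went from 9.58 to 12.6 (exact permutation p = 0.0286). With each start as a feature of its own in limma, neither passed at P7 (-0.34, adjusted p = 0.0724, upstream; 0.23, adjusted p = 0.0885, inner).

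For Tead4, whose transcript fell, the promoter percentile had means of 94.1 at P1 and 90.1 at P7 (exact permutation p = 0.114). Its fold enrichment had means of 10.4 at P1, 13.5 at P5 (exact permutation p = 0.0286) and 12.5 at P7 (exact permutation p = 0.114). The bases covered by peaks within 1000 bases of its start went from 1749, 1815, 1755 and 1795 at P1 to 1082, 1089 and 1415 at P7 (exact permutation p = 0.0286). The mean of covered bases was lower at P7 than at P1 for all 11 promoters with a peak, and 3 others had an exact permutation p of 0.0286: Wwtr1 (means 1925 and 1680), Vgll3 (1050 and 795) and the upstream start of Vgll4 (1724 and 1398). Covered bases were measured only at the promoters of the members, so this fall cannot be called particular to them. The P1 samples held 168982 to 186562 peaks and the P7 samples 200376 to 231558. For Wwtr1, Yap1 and Lats2, whose transcripts rose, the percentile means were 96.7 and 94.9, 71.5 and 65.1, and 86.8 and 83.3 at P1 and P7 (exact permutation p = 0.114, 0.171 and 0.200). The fold enrichment means were 8.91 and 9.35, 5.28 and 5.98, and 7.15 and 6.99 (exact permutation p = 0.514, 0.114 and 0.771). That of Yap1 was 6.45 at P5, above P1 without overlap (exact permutation p = 0.0571).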

How the data were processed

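The report draws on 44 RNA-seq libraries (counts) and 13 ATAC-seq samples (peak lists), and 18 bisulfite samples were not analysed here. For RNA-seq the authors ran Trimmomatic 0.39 for trimming, HISAT2 2.2.1 for alignment (mm10) and HTSeq 0.12.4, ignoring strand, for counting. They deposited whole-number counts with no normalization. Reads without a gene, reported in 28 of the files (7.50% to 16.8%), were left out. For ATAC-seq the authors aligned with Bowtie2 2.3.5.1 and called peaks in each sample with MACS2. The deposited peak lists give the fold enrichment (a ratio over local background) and the −log10 p and −log10 q of each summit. Versions are from the submitters' processing notes.

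Genes were filtered with filterByExpr, scaled by TMM and tested per experiment with the quasi-likelihood test of edgeR 4.0.16 in R 4.3.3, with Benjamini-Hochberg adjustment over all genes tested and a threshold of 0.05. Promoter peaks within 1000 bases of a RefSeq start (GRCm38.p6) were compared on the log2 scale after quantile normalization with limma 3.58.1. Percentiles rank the −log10 p of the strongest promoter peak among all peaks of the sample and were compared with scipy 1.17.1 by exact permutation. Of the 24984 symbols 24849 matched RefSeq and have a GC content. The GC and length fit used splines of 4 degrees of freedom each as offsets. The tilt and the likeness to Tead1 used genes with an average log2 CPM of at least 3.

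All 10 members are named. From each list the 3 highest and 3 lowest genes that passed are named for P7 against P1 and the Tead1 hairpins, and Ccn1, Ccn2 and Ankrd1 anywhere. One further gene of the target list is not reported here and is left out of its counts. The members and lists were chosen with earlier results of these data known. Alternatives were DESeq2 1.42.0, its size factors, no filter, at least 10 counts in every library, only the groups compared, a replicate block and leaving out each library. For ATAC-seq they were 500 or 2000 bases, a −log10 q of at least 5, no normalization and percentiles on the logit scale. Chosen after seeing the data were the GC and length offsets, each start as a feature, and Atf3 sh6 against sh5. No replicate pair was a duplicate by a chi-square comparison of counts. Depth is 9147324 to 27552949 counts per library, and total counts limit precision most for Tead4 and Atf3. The scripts were tested on simulated data.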

Additional observations from a re-analysis of the deposited data

Results flagged for a closer look

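A library far from the rest of its group was looked for in 51 groups of 4, each of the 10 genes at 4 passages and each of 11 promoters at P1, and chance marks about 1 in 20 groups. The P7 library of replicate 1 had 279 CPM of Tead1, the others 406 to 417. At P1, replicate 2 had 165 CPM of Yap1, the others 182 to 185, and 28.5 CPM of Vgll4, the others 34.7 to 35.8. At P3, replicate 1 had 33.9 CPM of Vgll4, the others 28.4 to 29.0.

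The hairpins against the same gene differed from each other by the test of the difference itself. Tead1 was 0.18 higher on the log2 scale with sh4 than with sh3 (adjusted p = 0.00625, edgeR), every sh4 library lying above every sh3 library. For Atf3, sh6 against sh5 differed in Wwtr1 (-1.64), Tead4 (1.13), Tead2 (-0.77), Lats1 (-0.48), Lats2 (0.40) and Vgll3 (-0.30), with adjusted p (edgeR) from 8.09e-08 to 0.00408. The GC tilt also differed between sh5 (-1.04 to -0.17) and sh6 (-0.04 to 0.29), and with GC and length in the fit Lats1 (-0.12, adjusted p = 0.0885) and Vgll3 (0.11, adjusted p = 0.165) no longer passed.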

How the results depend on the processing

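Under DESeq2, 135 of 140 log2 fold changes of members kept their direction and side of the threshold, as did 134 with its size factors, 135 with at least 10 counts in every library and 135 without a filter. With GC and length offsets 93 did, 14 called in neither fit changed sign, 13 called in at least 1 fit turned, and the rest gained or lost their call. Those that turned, with the value that also takes a replicate block second, were Vgll3 for P5 against P1 (0.19, 0.18), Lats1 for P7 against P1 (0.19, 0.19), Vgll3 (0.18, 0.18) and Wwtr1 (0.23, 0.22) for P5 against P3, and Lats1 (0.0950, 0.0935), Tead1 (0.0395, 0.0395) and Vgll3 (0.42, 0.42) for P7 against P3. They were also Tead1 (0.34, 0.34) and Vgll3 (0.30, 0.30) with E2f4 overexpression, Tead2 (0.16, 0.15) and Vgll3 (-0.25, -0.25) with Atf3 sh5, and Vgll3 (0.11, 0.11) and, without the block, Tead1 (0.13) for Atf3 sh6 against sh5. The members passing became 7 for P5 against P1, 8 for P7 against P1 and 2 for P5 against P3, with or without the block. With only the groups compared in the fit they became 2 for P7 against P5 and 3 for Atf3 sh5. For promoters, percentiles on the logit scale gave 1, 2, 4 and 2 calls for P3, P5 and P7 against P1 and P7 against P3. Without normalization there were 3 for P5 against P1, 2 for P7 against P1 and 1 for P7 against P3. With 500 bases there was 1 for P7 against P1 and with 2000 bases 1 for P7 against P3. The length of the longest transcript put the share of Tead1 at 33.2% with sh3, below the 35.4% of Tead3, and 35.8% with sh4. The counts of members and promoters under these alternatives stand without a share of all genes. The causes were not tested.

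Leaving out 1 library gave 4 to 6 members for P3 against P1, and 4 to 5 each for P5 and for P7 against P1. It gave 1 to 2 for P5 against P3 and 2 to 4 for P7 against P5. For P7 against P3 it gave 4 to 6, where all libraries gave 7. The ranges were 5 to 6 for E2f4 overexpression and 1 to 4 for E2f4 sh1. They were 7 to 9 for Tead1 sh3, 6 to 7 for sh4 and 0 to 1 for sh4 against sh3. With Atf3 they were 3 to 6 for sh5 and 6 to 7 for sh6 against sh5. For Atf3 sh6 the range was 4 to 5, where all libraries gave 6. No share of all genes stands beside these counts. For promoters, leaving out 1 sample gave 0 to 1 for P3 and for P5 against P1 and for P7 against P3. Depth limits Tead4 most, at 1.45 CPM in its lowest P7 library.

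Deviations of same-numbered passage libraries correlated at 0.07 on average, with values that differed between passages. Between P1 and P3 they were 0.11, 0.08, 0.12 and 0.27 for replicates 1, 2, 3 and 4. Between P5 and P7 they were 0.01, -0.26, -0.01 and 0.21 in the same order. Over all pairs of passages replicate 4 was always positive (0.11 to 0.28), while replicates 1, 2 and 3 each took both signs. Passage libraries of different number ran from -0.32 to 0.24. Whether replicate numbers pair the libraries was not tested. With the replicate block, 5 members passed for P3 against P1, 4 for P5 and 5 for P7, 9 with Tead1 sh3 and 7 with sh4. It gave 0 promoters for P5 against P1, 1 for P7 against P1 and 1 for P7 against P3.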
